A study of Mus musculus with 70 samples.

Results

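The 50 cell cycle and proliferation genes described here were taken by symbol from the pituitary RNA-seq table, which held 22835 genes. The rule used no comparison between groups, and each gene was read from the transcript with the highest mean level. The question was whether RNA of dividing cells differed with thyroid state or with loss of the thyroid hormone receptor TRβ. Levels are given in CPM, read counts of a transcript scaled to the total of its library, and are not corrected for length, so they were compared between libraries and not between genes. A mean above 0.5 CPM over all libraries was required for testing, and 49 of the 50 genes and 15042 genes in all passed. The exception was Ccnb1, the cyclin that drives entry into mitosis, which lay between 0.055 and 0.715 CPM.

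The 4 groups were adult male C57BL/6J mice aged 2 to 4 months, and every library was a pool of 3 pituitaries, so p-values measure the spread between pools. All groups, wild-type (WT) and Thrb-KO (Thrb-/-), drank methimazole at 0.05% with potassium perchlorate at 1% for 4 to 5 weeks, which blocks the thyroid gland. In the hyperthyroid groups T3, the active hormone, was added at 0.5 µg/ml in the final week, and the hypothyroid groups received none. There were 4 hypothyroid WT, 4 hyperthyroid WT, 5 hypothyroid Thrb-KO and 5 hyperthyroid Thrb-KO libraries, with no RNA group that was free of the thyroid block. The Thrb deletion was present in the whole animal, so the pituitary and the rest of the body lacked TRβ alike.

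A cell leaves rest when D-type cyclins with Cdk4 and Cdk6 inactivate Rb1, which frees E2F factors to switch on cyclin E and the genes of DNA replication. A later wave of genes, under control of the FoxM1 and DREAM complexes, builds the mitotic spindle and its checkpoint, and Mki67 and Top2a are the usual marks of cycling cells. In the adult pituitary few cells divide. Thyroid hormone acts there on thyrotrophs and other hormone cells, in part through TRβ, while loss of thyroid hormone enlarges the thyrotroph population. In whole tissue, fewer cells of a type and less RNA per cell cannot be told apart.

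The libraries held 21453548 to 55273749 reads each, with a median of 34673225, and markers of somatotrophs, a hormone cell of this gland, summed to 48444 to 159203 CPM. The libraries fell into 2 sets that followed the replicate numbers in every group. Lars2, a transcript that picks up ribosomal RNA fragments, was at 2571 to 3420 CPM in replicates 1 and 2 and at 53.2 to 95.1 CPM in replicates 3 to 5. The labels name 2 library kits without saying which library was made with which, and both sets held all 4 groups. The values for the whole Thrb transcript were 257 ± 27 CPM (SD, n = 4) in hypothyroid WT, 104 ± 23 (n = 4) in hyperthyroid WT, 271 ± 20 (n = 5) in hypothyroid Thrb-KO and 260 ± 32 (n = 5) in hyperthyroid Thrb-KO. Thrb RNA was not lower in the Thrb-KO libraries, and a level over the whole transcript does not check a deletion within the gene. Thrb RNA was lower with T3 in WT (log2 difference -1.32, limma adjusted p = 9.9e-07) with a log2 difference of -0.06 in Thrb-KO, and these responses differed (1.26, limma adjusted p = 0.00024).

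In WT pituitaries 2 regulators of entry into S phase were lower with T3 and 1 gene of the spindle checkpoint was higher, while the other 46 genes were not called. E2f1, which switches on DNA replication genes, was 3.31-fold lower in hyperthyroid libraries. Ccne1, the cyclin that starts S phase with Cdk2, was 1.90-fold lower, and Bub1b, a kinase-like checkpoint protein, was 1.98-fold higher. The call required an adjusted p under 0.05 and a 1.5-fold difference. Over all genes tested 4.79% were called higher and 7.16% lower. The count of 1 higher and 2 lower is too small to be read as different from these shares. With TMM factors, which rescale each library to a common typical gene, the same counts stood beside 6.17% and 5.6% (928 and 843 genes, against 720 and 1077 on CPM).

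E2f1 stood at 6.96, 7.49, 12.6 and 10.2 CPM in the 4 hypothyroid WT libraries and at 1.89, 1.26, 3.89 and 4.40 CPM in the 4 hyperthyroid WT libraries. The groups did not overlap, and within each library set the hyperthyroid levels were the lower ones. The log2 difference was -1.73 (SE 0.28, limma adjusted p = 0.00016). Ccne1 was at 2.20, 1.49, 2.89 and 2.79 CPM without T3 and at 0.900, 0.852, 1.30 and 1.33 CPM with T3, again with no overlap (log2 difference -0.93, SE 0.21, limma adjusted p = 0.0029). The call for Ccne1 ended when hyperthyroid WT replicates 1 and 2 were both left out (log2 difference -0.69, limma adjusted p = 0.051). The 2 promoters are printed because these genes were called lower, and each window runs from 250 bases before to 50 bases after a start on the strand of the gene. For Ccne1 the RefSeq window was used (GRCm38.p6, chr7:38107441-38107740, minus strand), and none of the cell cycle words searched below occurs in it. The RefSeq window of E2f1 lay inside the gene, with its start 466 bases downstream of the start in the mm9 gene model (GENCODE vM1), so the window at that gene start was read from mm9 instead (chr2:154395579-154395878, minus strand). Of the words searched below, capitals mark 3 CCAAT words and the E2F word TTGGCGC, read on either strand. The related word TTGCCGC was not searched, and its reverse complement (gcggcaa) lies upstream of the marked TTGGCGC.
E2f1: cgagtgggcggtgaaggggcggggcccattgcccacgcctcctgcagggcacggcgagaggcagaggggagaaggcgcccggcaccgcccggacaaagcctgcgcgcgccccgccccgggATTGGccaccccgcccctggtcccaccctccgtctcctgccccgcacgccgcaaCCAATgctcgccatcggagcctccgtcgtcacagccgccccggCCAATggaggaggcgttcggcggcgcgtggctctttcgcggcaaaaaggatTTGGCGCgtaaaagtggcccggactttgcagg
Ccne1: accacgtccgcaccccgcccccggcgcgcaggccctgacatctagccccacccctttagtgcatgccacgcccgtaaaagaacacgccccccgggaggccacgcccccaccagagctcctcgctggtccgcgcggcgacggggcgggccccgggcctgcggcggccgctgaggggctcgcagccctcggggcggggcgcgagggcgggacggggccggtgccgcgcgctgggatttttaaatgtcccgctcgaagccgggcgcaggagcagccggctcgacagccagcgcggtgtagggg

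Bub1b was at 3.91, 3.18, 5.17 and 3.99 CPM in hypothyroid WT and at 6.32, 6.73, 6.85 and 15.2 CPM in hyperthyroid WT. Every hyperthyroid level exceeded every hypothyroid level, and hyperthyroid WT replicate 4 stood far above the rest. The log2 difference was 0.99 (SE 0.29, limma adjusted p = 0.019), and the call was lost without hyperthyroid WT replicate 4 (limma adjusted p = 0.073) or hypothyroid WT replicate 2 (limma adjusted p = 0.057). Of the 49 genes tested, Bub1b alone had all hyperthyroid above all hypothyroid WT libraries (6.1% of all genes), and Ccnd1, Ccne1 and E2f1 had all below (12% of all genes). In the Bub1b promoter (chr2:118597961-118598260, plus strand), capitals mark the CHR word TTTGAA and the CCAAT word, read on either strand, which are the words that the DREAM complex and the factor NF-Y are known to bind.
Bub1b: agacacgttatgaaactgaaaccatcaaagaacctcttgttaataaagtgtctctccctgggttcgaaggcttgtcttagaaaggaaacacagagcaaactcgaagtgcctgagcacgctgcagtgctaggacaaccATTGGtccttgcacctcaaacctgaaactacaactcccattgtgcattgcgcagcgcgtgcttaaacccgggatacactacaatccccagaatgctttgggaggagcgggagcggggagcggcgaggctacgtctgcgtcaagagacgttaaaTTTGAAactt

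The adjusted p alone was passed by 1 gene higher and 4 lower (7.15% and 12.7% of all genes), and the 2 that missed 1.5-fold were D-type cyclins. Ccnd1 was at 161, 164, 150 and 144 CPM in hypothyroid WT and at 113, 119, 114 and 107 CPM in hyperthyroid WT. The hyperthyroid levels lay below the hypothyroid ones in both library sets (log2 difference -0.45, SE 0.09, limma adjusted p = 0.0012). Ccnd3 differed by -0.33 (SE 0.11, limma adjusted p = 0.040). Cdk6, a kinase partner of these cyclins, stood at 4.82 ± 1.9 against 3.77 ± 1.5 CPM (SD, n = 4 each), which did not pass (log2 difference 0.33). Among the inhibitors, Cdkn1b (p27) was at 71.0 ± 11 CPM in hyperthyroid and 57.2 ± 4.6 CPM in hypothyroid WT, also without a call.

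The median log2 difference over the 49 genes in WT was -0.12, and over all 15042 genes -0.04. Of the 49 genes, 15 were positive. With TMM factors both medians moved up alike, to -0.03 for the 49 genes and 0.05 over all genes. By role, the median in WT was -0.17 for the marks Mki67 and Top2a, -0.26 for the S-phase and mitotic cyclins with Cdk1, -0.24 for mitotic kinases and checkpoint genes and -0.06 for replication licensing genes, all without a called gene other than Bub1b. Markers of other cells moved in the same comparison. All 4 thyrotroph markers were called lower with T3 in WT, among them Tshb, the beta subunit of thyrotropin (31.3-fold), and their summed level was 9915 to 18710 CPM in hypothyroid and 1236 to 2114 CPM in hyperthyroid WT. Of 49 cell type markers 2 were called higher (Gh and Prl) and 6 lower, and their part in the values of the cell cycle genes was not tested.

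**Figure D1:**
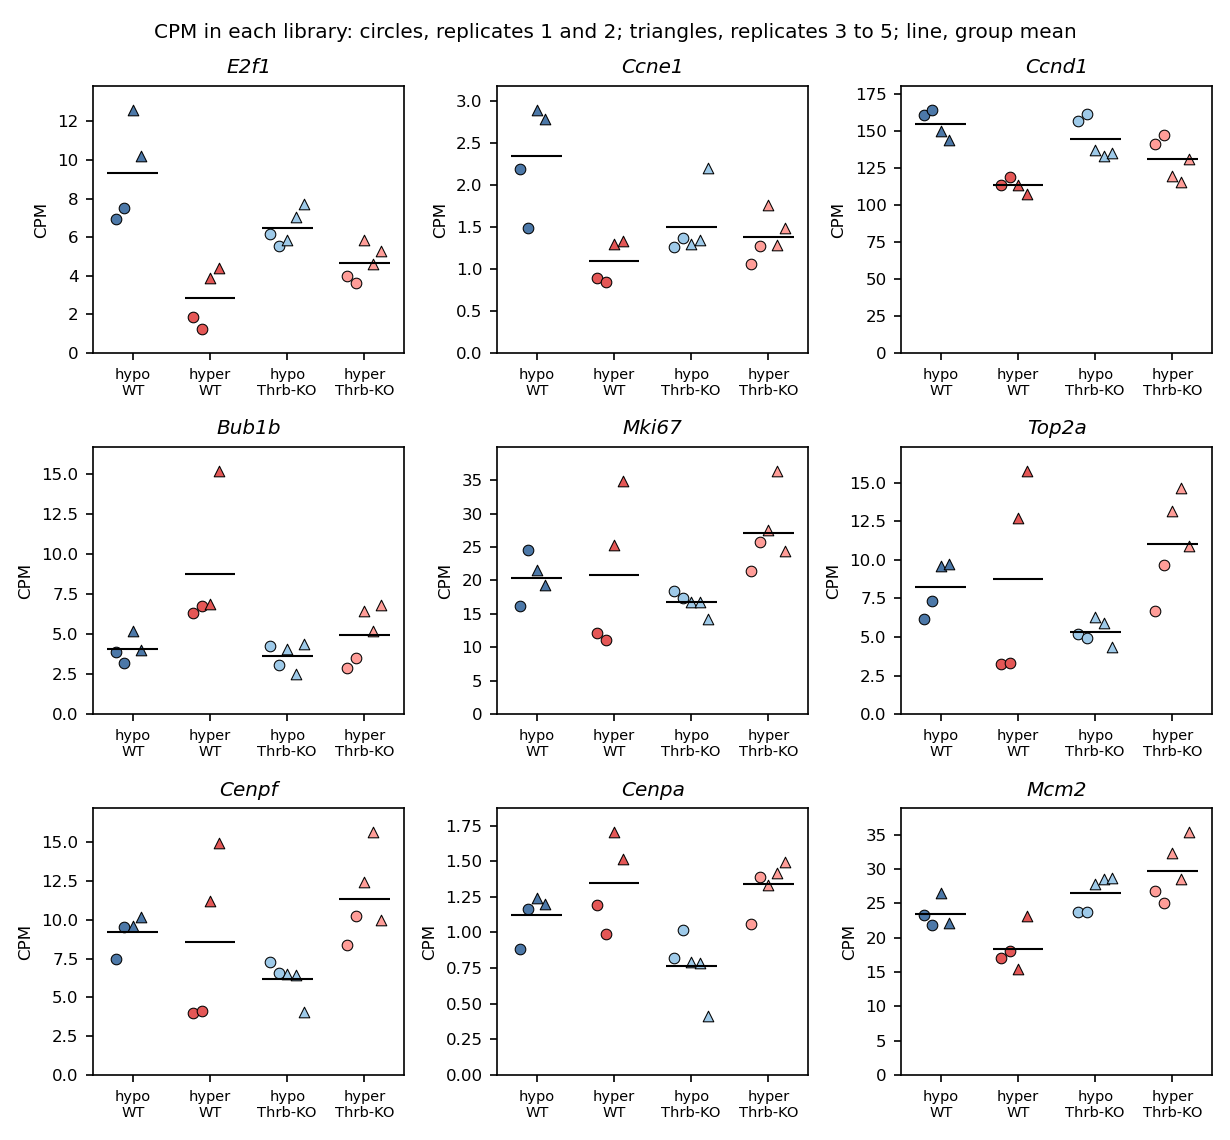
CPM of 9 cell cycle genes in each of 18 pituitary libraries (vertical axes, CPM from 0; horizontal axes, the 4 groups). Circles are replicates 1 and 2, triangles replicates 3 to 5, and lines group means. E2f1, Ccne1 and Ccnd1 show no overlap between the WT groups, and Mki67, Top2a and Cenpf lie on both sides of the hypothyroid WT libraries in hyperthyroid WT.

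In Thrb-KO pituitaries most genes of DNA synthesis and mitosis had a positive difference with T3, but only 1 was called. Cenpa, the histone variant that marks centromeres, was 1.59-fold higher (log2 difference 0.67, SE 0.17, limma adjusted p = 0.041). Over all genes, 0.632% were called higher and 0.931% lower in this comparison, and the count of 1 of 49 higher and 0 lower rests on a single gene. Of the 49 genes 42 had a positive difference, with a median of 0.20 against -0.008 over all genes, and 16 were higher and 0 lower at an unadjusted p under 0.05 (561 and 805 of all 15042 genes). edgeR called 0 of the 49 (16 higher and 0 lower, unadjusted) and DESeq2 called 2. With TMM factors 2 were higher and 0 lower, beside 0.705% and 0.911%. In these libraries all 4 thyrotroph markers were called lower with T3 (Tshb 28.6-fold, Trhr 4.53-fold, Cga 4.33-fold and Dio2 4.02-fold), with a summed level of 9358 to 11871 CPM in hypothyroid and 1632 to 1737 CPM in hyperthyroid Thrb-KO. Prl, the hormone of lactotrophs, was called higher (3.10-fold, from 4718 to 5917 CPM in hypothyroid and from 12031 to 20407 CPM in hyperthyroid Thrb-KO). The other 44 of 49 cell type markers were not called, and the part of these cell types in the differences was not tested.

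Cenpa stood at 0.820, 1.01, 0.796, 0.789 and 0.416 CPM in hypothyroid Thrb-KO and at 1.06, 1.39, 1.33, 1.42 and 1.49 CPM in hyperthyroid Thrb-KO. The groups did not overlap, and hypothyroid replicate 5 was the lowest library. The call was not stable, as it was lost when any 1 of 12 single libraries was left out (adjusted p up to 0.12). Nusap1, a spindle protein, passed the adjusted p without the fold (1.43-fold, limma adjusted p = 0.044), so that 2 genes were higher and 0 lower by that criterion alone (0.858% and 1.34% of all genes). The Cenpa promoter (chr5:30666636-30666935, plus strand) carries the CHR and CCAAT words in capitals.
Cenpa: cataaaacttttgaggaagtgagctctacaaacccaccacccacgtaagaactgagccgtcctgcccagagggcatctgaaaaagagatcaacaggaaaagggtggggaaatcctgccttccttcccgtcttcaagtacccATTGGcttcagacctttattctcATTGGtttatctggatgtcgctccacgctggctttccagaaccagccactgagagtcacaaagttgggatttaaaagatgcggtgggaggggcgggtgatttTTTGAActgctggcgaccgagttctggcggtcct

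Mki67, the antigen used to count cycling cells, was at 18.5, 17.4, 16.8, 16.8 and 14.3 CPM in hypothyroid and at 21.4, 25.7, 27.6, 36.4 and 24.4 CPM in hyperthyroid Thrb-KO. All 5 hyperthyroid libraries were above all 5 hypothyroid libraries, although the log2 difference of 0.67 (SE 0.24) did not pass (limma adjusted p = 0.25). Top2a, which untangles replicated DNA, was at 5.19, 4.94, 6.28, 5.88 and 4.38 CPM against 6.68, 9.69, 13.2, 14.7 and 10.9 CPM with T3 (0.98, SE 0.35, limma adjusted p = 0.24). Cenpf, a kinetochore protein, ran from 4.03 to 7.28 CPM in hypothyroid and from 8.39 to 15.6 CPM in hyperthyroid Thrb-KO. The same separation held for 8 of the 49 genes (Mki67, Top2a, Birc5, Kif11, Cenpa, Cenpf, Mcm5 and Rrm2), beside 2.21% of all genes, and for 0 in the other direction, beside 3.7%. In the Mki67 promoter (chr7:135716330-135716629, minus strand) capitals mark 2 CHR words, 3 CCAAT words and the E2F word TTGGCGC.
Mki67: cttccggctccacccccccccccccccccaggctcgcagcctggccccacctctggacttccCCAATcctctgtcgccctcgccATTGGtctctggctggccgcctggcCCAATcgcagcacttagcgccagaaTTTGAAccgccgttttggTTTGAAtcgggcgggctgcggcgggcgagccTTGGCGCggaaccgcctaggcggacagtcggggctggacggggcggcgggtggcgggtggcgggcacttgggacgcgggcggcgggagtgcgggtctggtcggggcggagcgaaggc

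By role, the median log2 difference with T3 in Thrb-KO was 0.82 for the 2 proliferation marks, 0.50 for the S-phase and mitotic cyclins with Cdk1, 0.62 for spindle and kinetochore genes and 0.39 for mitotic kinases and checkpoint genes, of which 9 of 9 were positive. It was 0.17 for replication licensing genes, 0.06 for G1 cyclins and kinases and -0.07 for inhibitors. Cdk6 was the G1 kinase with the largest difference. It stood at 6.08, 6.91, 4.36, 4.04 and 3.84 CPM in hypothyroid and at 13.4, 12.0, 6.15, 7.57 and 5.13 CPM in hyperthyroid Thrb-KO, higher with T3 within each library set while the sets themselves lay apart. Without a term for the replicate number its log2 difference of 0.73 did not pass (limma adjusted p = 0.38).

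With the replicate number as a block, which also takes up the distance between the library sets, 6 genes were called higher with T3 in Thrb-KO, namely Cdk6 (log2 difference 0.73, limma adjusted p = 0.00047), Cenpa, Cenpf, Foxm1, Rrm2 and Top2a, and 0 lower, beside 0.851% and 1.24% of all genes. A block for the library set gave 6 higher and 0 lower, beside 0.884% and 1.28%. Foxm1 is the transcription factor of the mitotic genes, and Rrm2 is the regulated subunit of ribonucleotide reductase. The log2 differences of these 6 ran from 0.64 for Foxm1 to 0.98 for Top2a. In WT the replicate block gave 1 higher and 2 lower, Bub1b, Ccne1 and E2f1 again, beside 5.13% and 7.74%.

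**Figure D2:**
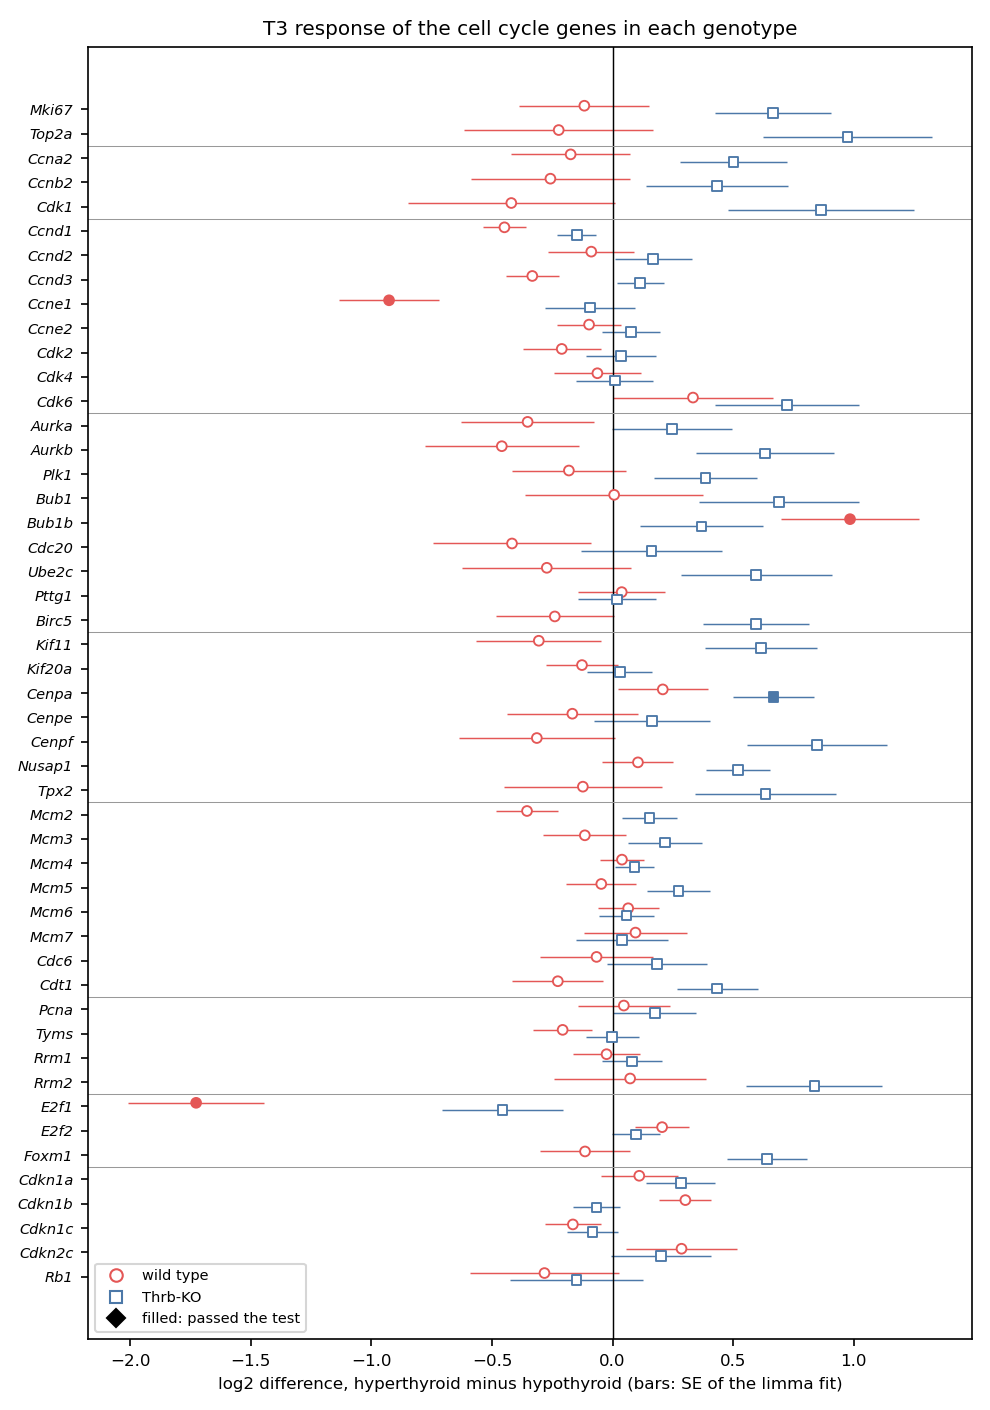
Log2 difference of hyperthyroid minus hypothyroid libraries for the 49 genes tested (horizontal axis, bars are SE of the limma fit), WT as circles and Thrb-KO as squares, with filled symbols for genes past the test. In Thrb-KO 42 of 49 genes lie to the right of 0 and in WT 15 of 49.

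The difference of the T3 responses between genotypes was positive for 42 of 49 genes, meaning a more positive response in Thrb-KO, with a median of 0.39 against 0.04 over all genes. None passed the test, beside 2.97% of all genes called higher and 2.21% lower. The limma counts at an unadjusted p under 0.05 were 14 higher and 1 lower, and edgeR and DESeq2 each called 0 (9 higher and 1 lower, unadjusted). No share of all genes at that limit is given for these counts, so they are not read as an excess. With TMM factors the count was 0 beside 2.41% and 2.93% (362 and 441 genes, against 447 and 333 on CPM). E2f1 came nearest (log2 difference of differences 1.27, SE 0.38, limma adjusted p = 0.055). E2f1 was at 6.15, 5.53, 5.86, 7.03 and 7.74 CPM in hypothyroid and at 3.99, 3.62, 5.86, 4.64 and 5.27 CPM in hyperthyroid Thrb-KO, with overlap between the groups and a log2 difference of -0.46 that did not pass (limma adjusted p = 0.72). With the replicate block 6 genes passed, E2f1 (limma adjusted p = 0.0036), Ccne1, Cenpf, Foxm1, Kif11 and Top2a, all positive, and 0 were negative, beside 4.27% and 3.18% of all genes. A block for the library set gave 11 and 0, beside 4.45% and 3.27%. The 2 responses were computed from separate libraries, whereas each genotype comparison below shares its libraries with a T3 response.

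The 4 hyperthyroid WT libraries split by library set, and this split was seen in many mitotic genes. Replicates 1 and 2 held the 2 lowest levels among all 18 libraries for 17 of the 49 genes, beside 5.42% of all genes tested. Mki67 was at 12.1 and 11.05 CPM in these and at 25.3 and 34.9 CPM in replicates 3 and 4, with hypothyroid WT at 16.1, 24.5, 21.5 and 19.3 CPM. Top2a was at 3.24 and 3.32 CPM against 12.7 and 15.8 CPM in the later ones, with hypothyroid WT at 6.19, 7.35, 9.62 and 9.72 CPM. Thus for both marks 2 hyperthyroid libraries lay below all hypothyroid WT libraries and the other 2 above them. Below in replicates 1 and 2 and above in replicates 3 and 4 was seen for 10 of the 49 genes (Mki67, Top2a, Ccna2, Ccnb2, Plk1, Cenpf, Nusap1, Mcm5, Cdc6 and Rrm2), beside 0.937% of all genes. This pattern and that of the 2 lowest levels follow the split seen in these same libraries. Their counts describe the split and are no independent support for it. Below in both sets were 5 (Ccnd1, Ccnd3, Ccne1, Tyms and E2f1), beside 21%, and above in both were 3 (Cdk6, Bub1b and Cdkn1b), beside 11.4%.

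**Figure D3:**
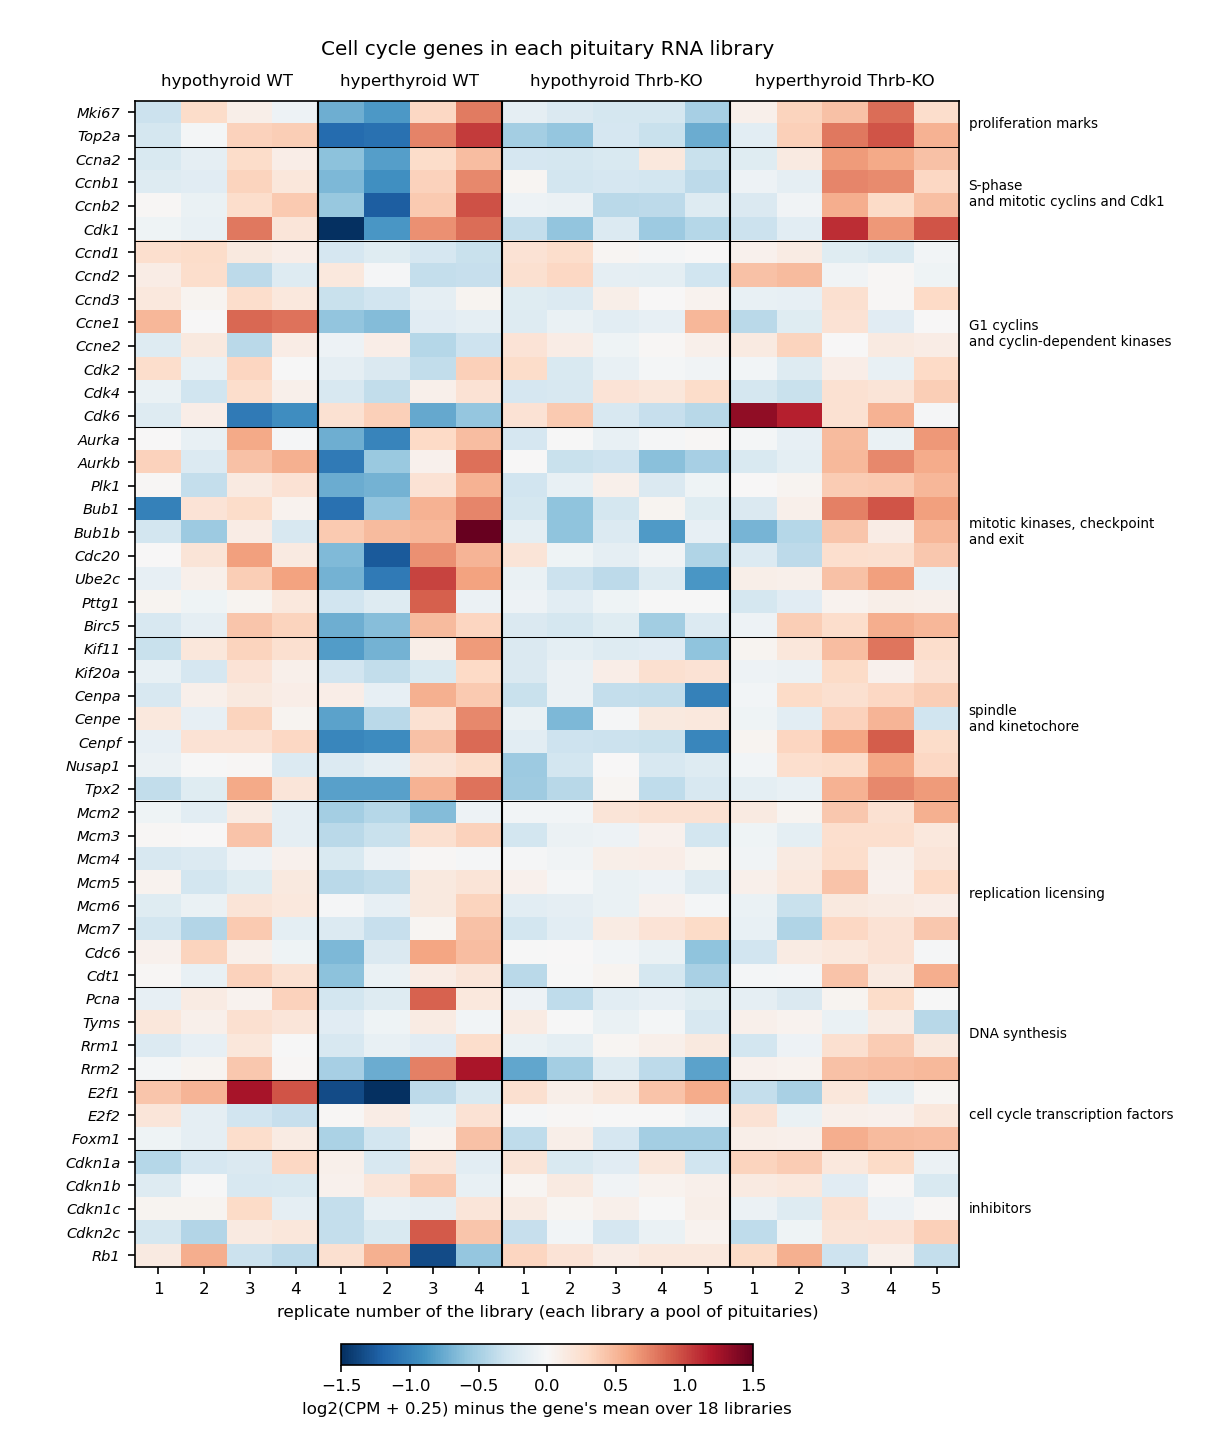
Log2(CPM + 0.25) of the 50 genes in each of 18 libraries minus the mean of the gene over all libraries (blue below, red above), ordered by role and by group. Hyperthyroid WT replicates 1 and 2 are blue and replicates 3 and 4 are red for many mitotic genes, and E2f1 is blue in all 4.

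In a model with the 8 combinations of group and library set, chosen after the split was seen, the T3 response of WT replicates 1 and 2 held 0 genes called higher and 12 lower, beside 4.82% and 6.54% of all genes. They were Mki67 (log2 difference -0.77, limma adjusted p = 0.011), Top2a (-0.99), Ccnb2, Cdk1 (-1.11), Ccne1, Aurka, Aurkb, Cdc20, Ube2c, Kif11, Cenpf and E2f1 (-2.05). The counts for replicates 1 and 2 describe the split and are no independent support for it. In WT replicates 3 and 4, 2 were higher (Bub1b and Rrm2) and 3 lower (E2f1 at -1.40, Ccne1 and Rb1), beside 5.73% and 9.35%. There Mki67 differed by 0.54 (limma adjusted p = 0.059) and Top2a by 0.54 without reaching 1.5-fold. With TMM factors both were called higher in replicates 3 and 4, Mki67 at 0.67 (limma adjusted p = 0.018) and Top2a at 0.68 (limma adjusted p = 0.014), as were Bub1b, Rrm2 and Cdkn2c, while E2f1 and Ccne1 were called lower and Rb1 was not (5 higher and 2 lower, beside 7.97% and 6.69%). The set difference of the WT response itself was 1.31 for Mki67 (SE 0.28, limma adjusted p = 0.20) and 1.53 for Top2a (SE 0.27, limma adjusted p = 0.13), and 0 of 49 genes passed (0% of all genes higher and 0.00665% lower). At an unadjusted p under 0.05 this difference was higher for 19 and lower for 1 of the 49 genes, beside 446 and 780 of all 15042 genes. With 0 of 49 passing after adjustment, a different T3 response between the sets was not established for any single gene.

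In the same model the T3 response of Thrb-KO replicates 3 to 5 held 13 genes called higher and 0 lower, beside 1.22% and 1.36% of all genes. They were Mki67 (log2 difference 0.85), Top2a (1.20), Ccna2, Ccnb2, Cdk1 (1.29), Aurkb (1.07), Birc5, Kif11, Cenpa, Cenpf (1.14), Tpx2, Rrm2 and Foxm1. In Thrb-KO replicates 1 and 2, Cdk6 was higher (0.95, limma adjusted p = 0.0046) and 0 were lower, beside 0.525% and 0.904%. The set difference of this response passed for 0 of 49 genes, as it did for 0% of all genes in either direction. Unadjusted, 10 of the 49 were higher and 0 lower, beside 463 and 173 of all 15042 genes. In 17 of 49 genes, Mki67, Top2a, Cdk1 and Cdk6 among them, every hyperthyroid Thrb-KO library exceeded every hypothyroid one of its own set, beside 4.68% of all genes. E2f1 and Ccne1 were lower with T3 in both WT sets, and Ccnd1 differed by -0.48 and -0.41 in these sets. The difference of the T3 responses between genotypes was called higher for 7 genes and lower for 0 in replicates 1 and 2, beside 1.96% and 2.09%, and for 2 (E2f1 and Foxm1) and 0 in the later replicates, beside 4.74% and 2.67%. The count of 7 uses the same low hyperthyroid WT libraries and is no independent support.

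**Figure D4:**
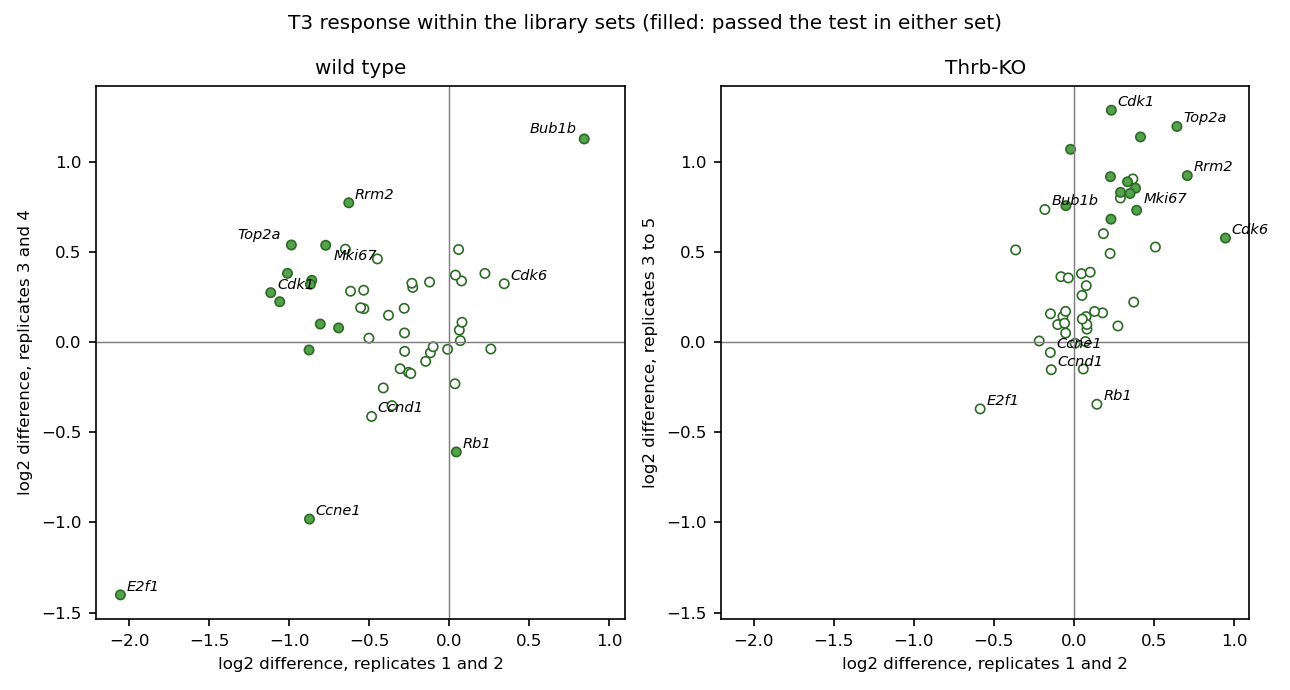
Log2 difference of hyperthyroid minus hypothyroid libraries for each of 49 genes in replicates 1 and 2 (horizontal axes) and in the later replicates (vertical axes), WT left and Thrb-KO right, with filled points for genes past the test in either set. In WT Mki67 lies at -0.77 and 0.54, and in Thrb-KO at 0.38 and 0.85.

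Other measured features moved with the library set in hyperthyroid WT, and not only there. Prl, the hormone of lactotrophs, was at 15603 and 14523 CPM in replicates 1 and 2 and at 53184 and 26905 CPM in replicates 3 and 4, against 5863 to 9334 CPM in hypothyroid WT. Tshb was at 76.5 and 40.5 CPM in hyperthyroid WT replicates 1 and 2 and at 422 and 271 CPM in replicates 3 and 4. In hyperthyroid Thrb-KO it was at 139 and 84.9 CPM in replicates 1 and 2 and at 138, 169 and 149 CPM in the later ones. The 4 thyrotroph markers summed to 9915 to 10592 CPM in hypothyroid WT replicates 1 and 2 and to 16050 to 18710 CPM in replicates 3 and 4. The summed level of 6 endothelial markers was 255 to 278 CPM in hyperthyroid WT replicates 1 and 2 and 149 to 186 CPM in replicates 3 and 4, with hypothyroid WT at 292 to 297 and 193 to 204 CPM. The 6 stem and folliculostellate markers summed to 243 and 244 CPM against 301 and 311 CPM. They were also higher in the later replicates of hyperthyroid Thrb-KO (196 to 220 against 258 to 292 CPM). The same held in hypothyroid Thrb-KO (192 to 209 against 240 to 264 CPM). In hypothyroid WT the sets overlapped (203 to 228 against 216 to 265 CPM). Within hyperthyroid WT, 24 of 49 genes were called higher and 2 lower (Cdk6 and Rb1) in replicates 3 and 4 than in replicates 1 and 2, beside 9.24% and 14.7% of all genes. Within hypothyroid WT the counts were 2 and 2, beside 3.08% and 7.84%. The hyperthyroid WT comparison was made after the split was seen in these same libraries. Its counts describe the split and are no independent support for it. The part of cell makeup or of library preparation in these values was not tested.

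Between the genotypes in the hypothyroid state, 0 of 49 genes were called, beside 1.57% of all genes higher and 2.93% lower in Thrb-KO. The limma counts at an unadjusted p under 0.05 were 1 higher and 3 lower, edgeR called 0 (0 higher and 5 lower, unadjusted) and DESeq2 called Ccne1 lower. These unadjusted counts, too, are given without a share of all genes and are not read as an excess. The median log2 difference of Thrb-KO minus WT was -0.18, with 14 of 49 positive, and 0.02 over all genes. Ccne1 was at 1.26, 1.37, 1.30, 1.35 and 2.21 CPM in hypothyroid Thrb-KO, where 4 of 5 libraries lay below the lowest WT level of 1.49 CPM. It passed with the replicate block (log2 difference -0.63, limma adjusted p = 0.013, with 2.09% of all genes called higher and 3.62% lower). A block for the library set gave 0 higher and 2 lower, beside 2.13% and 3.61%. Cdk1, Cenpf and Rrm2 were lower in all 5 Thrb-KO than in all 4 WT libraries (3 of 49, beside 7% of all genes) and none was higher in all (7.35%). Cdk1, the kinase of mitotic entry, ran from 0.654 to 0.941 CPM in Thrb-KO and from 1.02 to 2.11 CPM in WT, but its difference of -0.62 did not pass (limma adjusted p = 0.46). Within replicates 3 to 5, 13 genes were called lower and 1 higher (Cdk6), beside 4.27% and 3.58%. Within replicates 1 and 2 there were 0 (2.21% and 1.12%). Unadjusted, 0 were higher and 3 lower there, beside 872 and 1229 of all 15042 genes. Markers of macrophages and other leukocytes, 8 genes, summed to 48.8 to 61.2 CPM in hypothyroid Thrb-KO and 87.0 to 94.5 CPM in hypothyroid WT. Of these C1qa, Csf1r and Cx3cr1 were called lower. The thyrotroph markers Trhr (log2 difference -1.38) and Dio2 (-0.63) and the corticotroph and melanotroph marker Pcsk2 (-0.68) were also called lower. Within replicates 3 to 5 the 4 thyrotroph markers summed to 9358 to 11871 CPM in Thrb-KO and 16050 to 18710 CPM in WT. Within replicates 1 and 2 the sums were 9792 to 10269 and 9915 to 10592 CPM. The part of these cell types in the lower values was not tested.

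Between the genotypes in the hyperthyroid state Mcm2, a subunit of the replicative helicase, was 1.61-fold higher in Thrb-KO (log2 difference 0.68, SE 0.12, limma adjusted p = 0.00065). This was 1 of 49 higher and 0 lower, beside 3.63% and 3.22% of all genes (2.68% and 4.02% with TMM factors, or 403 and 604 genes against 546 and 484). Mcm2 stood at 17.0, 18.0, 15.5 and 23.1 CPM in hyperthyroid WT and at 26.8, 25.1, 32.3, 28.6 and 35.3 CPM in hyperthyroid Thrb-KO. The groups did not overlap, which held for 1 of 49 genes in this direction and for 7.61% of all genes, and for 0 in the other (4.29%). In the hypothyroid state it was at 21.8 to 26.5 CPM in WT and at 23.7 to 28.7 CPM in Thrb-KO, with overlap. The other helicase subunits Mcm3 to Mcm7 were not called in any of these comparisons. The Mcm2 promoter (chr6:88898731-88899030, minus strand) holds 1 CHR and 1 CCAAT word in capitals.
Mcm2: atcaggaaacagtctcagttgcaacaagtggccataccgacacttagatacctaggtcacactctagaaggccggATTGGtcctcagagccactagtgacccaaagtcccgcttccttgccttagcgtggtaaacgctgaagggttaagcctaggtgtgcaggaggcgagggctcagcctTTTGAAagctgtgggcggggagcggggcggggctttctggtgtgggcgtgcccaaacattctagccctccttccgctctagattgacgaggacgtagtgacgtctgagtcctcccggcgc

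In the same comparison 42 of 49 genes were positive, with a median of 0.25 against 0.07 over all genes. Bub1b was at 2.85, 3.48, 6.46, 5.17 and 6.81 CPM in hyperthyroid Thrb-KO, with a log2 difference from WT of -0.77 that did not pass (limma adjusted p = 0.075), and it was called lower by edgeR, by DESeq2 and with TMM factors. With the replicate block 4 were higher, Cdk6 (log2 difference 0.96), E2f1 (0.73), Kif11 (0.61) and Mcm2 (0.64), and Bub1b was lower (-0.86, limma adjusted p = 0.018), beside 4.17% and 3.69% of all genes. A block for the library set gave 3 higher and 1 lower, beside 4.18% and 3.7%. Only Cdk6 was called in both library sets, at 0.95 in replicates 1 and 2 and 0.91 in replicates 3 to 5, and Mcm2 missed 1.5-fold in replicates 1 and 2 (0.56). In replicates 1 and 2, where hyperthyroid WT was lowest, 14 genes were higher in Thrb-KO and 1 lower (2.87% and 3.84% of all genes), with Mki67 at 1.01 and Top2a at 1.23. This comparison uses the 2 hyperthyroid WT libraries in which the split was seen, and its count is no independent support for a genotype difference. In replicates 3 to 5 there were 3 higher, Cdk6, Mcm2 and Rb1, and 0 lower (7.1% and 6.14%), with Mki67 at -0.03 and Top2a at -0.14.

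A second list of 126 tested cell cycle genes outside the 50 was read in the same fit. In WT 4 were called higher with T3 and 3 lower, beside 4.79% and 7.16% of all genes. These counts are too small to be read as different from those shares, and the values of those called follow. Espl1, the separase that splits sister chromatids, rose from 2.09 ± 0.36 to 8.47 ± 1.6 CPM (SD, n = 4 each, log2 difference 1.89, limma adjusted p = 5.7e-07). Pola2, a subunit of DNA polymerase alpha, rose from 5.40 ± 0.57 to 11.7 ± 1.6 CPM (1.08), with Myc (0.83) and Stmn1 (0.73) also higher. Racgap1, which acts in cytokinesis, fell from 67.9 ± 8.5 to 35.0 ± 6.1 CPM (log2 difference -0.96, limma adjusted p = 1.3e-05), and the kinesins Kif4 (-1.36) and Kif18a (-0.67) were lower. In Thrb-KO only E2f7 was called, higher by 0.89 (limma adjusted p = 0.013), with 1 of 126 higher and 0 lower beside 0.632% and 0.931%. The response of Espl1 differed between genotypes by -1.33 and that of Racgap1 by 0.75 (limma adjusted p = 0.0028 and 0.0094), and for this list 4 differences were positive and 4 negative among those called, beside 2.97% and 2.21%. Its median was -0.13 in WT and 0.12 in Thrb-KO, with 33 and 100 of 126 positive. In the model with the 8 combinations, Thrb-KO replicates 3 to 5 held 22 of the 126 called higher and 0 lower, beside 1.22% and 1.36%. Thrb-KO replicates 1 and 2 held 0 in either direction, beside 0.525% and 0.904%. Unadjusted, 10 were higher and 1 lower there, beside 409 and 957 of all 15042 genes. In WT replicates 1 and 2 there were 4 higher and 16 lower, beside 4.82% and 6.54%, and in WT replicates 3 and 4 there were 8 higher and 3 lower, beside 5.73% and 9.35%. The difference of the response between the sets was called for 0 of 126 genes in either genotype. Unadjusted, 27 were higher and 3 lower in WT, beside 446 and 780 of all 15042 genes. In Thrb-KO these counts were 14 and 0, beside 463 and 173.

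Of 19 tested p53 target genes, Gadd45a, a stress-induced growth arrest gene, was higher with T3 in WT (15.1 ± 3.2 to 41.2 ± 4.0 CPM, log2 difference 1.45, limma adjusted p = 5.2e-06), and Tnfrsf10b (-0.70) and Bbc3 (-0.62) were lower, which is 1 higher and 2 lower beside 4.79% and 7.16%. None was called in Thrb-KO (1 higher and 2 lower at an unadjusted p under 0.05, 0 by edgeR and 0 by DESeq2).

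Promoter windows in RefSeq (GRCm38.p6) matched 39 of the 50 genes. Placed on mm9 by their sequence, 33 of the 39 windows held the start of the gene model, and those of Pttg1, Mcm7, Cdc6, E2f1, E2f2 and Cdkn2c did not. The CHR word TTTGAA, searched on both strands, occurred in 13 of 39 windows (33.3%), in 18.1% of all 27025 windows and in 11.5% of 10526 windows of tested genes. It was found in the windows of Mki67, Top2a, Ccnb2, Cdk1, Aurka, Plk1, Bub1b, Cdc20, Ube2c, Kif11, Cenpa, Cenpf and Mcm2, all of them windows that held the gene start (13 of 33), and in 0 of 5 windows of G1 genes and 0 of 3 of inhibitors. CCAAT was present in 26 of 39 (66.7%, with 37.9% of all windows and 38.3% of those of tested genes). Of the E2F words, TTCCCGC was searched first. A window also counted where it held TTGGCGC. The word TTCGCGC was treated in the same way. The related word TTGCCGC was not searched, so the counts of E2F words leave it out. An E2F word was present in 13 of 39 windows (33.3%, with 8.21% of all windows and 14.3% of those of tested genes), among them 6 of 7 licensing genes and 0 of 8 mitotic kinase and checkpoint genes. Of the 33 windows that held the gene start, 24 had CCAAT and 9 had an E2F word (27.3%), with 4 of 5 licensing genes. The receptor hexamer AGGTCA was in 5 of 39 (12.8%, with 16.04% of all windows and 11.9% of those of tested genes). CCAAT read on the minus strand can share letters with TTGGCGC, and a match is a description of the window only. Of the genes called in the main comparisons, Bub1b, Cenpa and Mcm2 held the CHR word in the RefSeq window, and neither the Ccne1 window nor the mm9 window of E2f1 held it.

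TRβ binding was mapped in untreated mice that carry a tagged receptor, TRβ-HAB, purified with its chromatin. Peaks were called on merged replicates against mice without the tag (mm9). Tagged and control mice both carried the BirA ligase, which adds biotin to the tag where it is present. A pituitary peak lay within 20 kb of 11 of 49 genes (22.4%) and of 39.6% of 14741 placed genes. The 11 were Mki67, Cdk4, Cdk6, Birc5, Kif11, Mcm7, Cdc6, Cdt1, Cdkn1a, Cdkn2c and Rb1. None of E2f1, Ccne1, Bub1b, Cenpa and Mcm2 was among them. In cerebral cortex 12 of 49 had a peak (24.5%, with 33.4% of all), with E2f1 among them at 3593 bases from the gene. Chromatin sites whose opening differed with T3 lay within 20 kb of Cdk6 and Rb1 only (4.08%, with 7.66% of all). These sites came from hypothyroid and hyperthyroid male mice, treated as the RNA groups were. Their anterior pituitary nuclei were tagged through the alleles Thrb-b2Cre and Sun1-GFP. The Mki67 peak (chr7:142908601-142909150) lay 539 bases upstream of the gene, with 22 reads against 1 in the control.

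For Cdk6 and Rb1 a pituitary TRβ-HAB peak coincided with a T3-regulated open site, and both sequences are printed for this reason (mm9, plus strand). The Cdk6 peak lay in an intron (chr5:3388401-3388850) with 44 reads against 3 and a 12.2-fold excess, and its last 300 bases, chr5:3388551-3388850, are shown. The Rb1 peak lay in an intron (chr14:73671751-73672000) with 22 reads against 3. Capitals mark the best match to a direct repeat of AGGTCA with a spacer of 4 bases, the arrangement that thyroid hormone receptors are known to bind. The Rb1 match had 11 of 12 letters, which 4.03% of pituitary peaks of like width reached, and the Cdk6 match, on the minus strand, had 10 of 12, which 25.5% reached.
Cdk6: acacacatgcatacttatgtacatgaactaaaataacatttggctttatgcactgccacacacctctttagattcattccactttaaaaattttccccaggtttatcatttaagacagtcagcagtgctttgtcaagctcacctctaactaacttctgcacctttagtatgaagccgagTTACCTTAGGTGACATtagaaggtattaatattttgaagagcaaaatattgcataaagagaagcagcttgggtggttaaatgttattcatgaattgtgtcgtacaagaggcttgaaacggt
Rb1: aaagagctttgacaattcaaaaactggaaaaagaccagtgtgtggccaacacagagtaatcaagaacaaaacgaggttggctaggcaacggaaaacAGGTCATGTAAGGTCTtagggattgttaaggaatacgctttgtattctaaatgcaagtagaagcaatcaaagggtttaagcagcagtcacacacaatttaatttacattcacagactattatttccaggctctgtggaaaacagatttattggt
Rb1 RNA, the brake on entry into S phase, was at 39.7, 52.8, 28.9 and 27.5 CPM in hypothyroid WT and at 42.6, 52.3, 14.1 and 23.98 CPM in hyperthyroid WT, below the hypothyroid levels in replicates 3 and 4 and overlapping them in replicates 1 and 2. Cdk6 RNA was called higher with T3 in Thrb-KO, the animals without TRβ, under the replicate block, while the binding was measured in animals with the receptor.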

How the data were processed

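RNA was measured in 18 pituitary libraries of a series of 70 samples, each a pool of 3 pituitaries. The authors mapped reads to mm9 and deposited one table of CPM (reads scaled to the library total) per RefSeq transcript. Whole reads could be recovered from 100% of its values within a tolerance of 0.01 read, and 3 reads correspond to 0.0543 to 0.140 CPM, depending on the library. The labels name STAR and Bowtie2 among the tools, and edgeR, SICER 1.1 and MACS2 (submitters' processing notes), while the methods of the study name BBMap for RNA.

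Levels were compared with limma 3.58.1 (R 4.3.3) on log2(CPM + 0.25), in one model of 4 groups with all 18 libraries and empirical Bayes moderation with a trend, over the 15042 genes with a mean CPM above 0.5. Such fold changes understate those of low genes. p-values were adjusted by Benjamini-Hochberg over all genes, and a call needed an adjusted p under 0.05 and 1.5-fold. edgeR 4.0.16 and DESeq2 1.42.0 on the recovered reads, other filters, pseudocounts and scalings, blocks and single libraries left out were alternatives. The scripts were tested on simulated data. The 50 genes and the other gene lists were chosen with earlier results of these data known. Any of the 50 genes could be named, with at most the 5 called genes of largest change per direction and comparison from the other cell cycle and p53 target lists, markers of cell types that moved with the 50, and Thrb as the targeted gene. Lars2 was named after its values were seen.

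Same-numbered libraries deviated together from their group means in all 25 pairs of groups and numbers (correlation 0.134 to 0.760), and the numbers were therefore treated as pairing the samples. Within a library set the same correlation was -0.331 to 0.254, and a library correlated best with its own number in 10 of 25, so the block mostly follows the library set.

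For TRβ-HAB peaks the authors merged replicates and deposited the read count of the tagged and the control libraries, their fold ratio and the false discovery rate (FDR, a q-value) for each peak, as SICER gave them. Peaks were called on windows of 50 bases with an FDR limit of 1e-06. A list of sites with T3-regulated open chromatin (ATAC-seq of tagged anterior pituitary nuclei) was used for positions only, and its column of the authors' own comparison was not used. Peaks were placed against mm9 gene models within 20 kb of a gene. Promoter sequences come from RefSeq (GRCm38.p6), except that of E2f1, which was read from mm9. Windows of the 50 genes were placed on mm9 by exact sequence match.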

Additional observations from a re-analysis of the deposited data

Results flagged for a closer look

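Among 200 pairs of a gene and a group, 11 held a library whose distance from the next was large for the range of its group (Dixon's test at its 95% critical value), and chance alone flags about 1 in 20 such groups. Hypothyroid Thrb-KO replicate 5 accounted for 4 of the 11, being high for Ccne1 (2.21 CPM) and low for Kif11 (2.40 CPM), Cenpf (4.03 CPM) and Cdc6 (0.320 CPM). In hypothyroid Thrb-KO, replicate 4 stood apart for Ccna2 (7.92 CPM) and Birc5 (0.592 CPM), and replicate 1 for Ccnb1 (0.342 CPM). In hypothyroid WT, replicate 3 stood apart for Aurka (2.36 CPM) and Rrm2 (2.02 CPM). In hyperthyroid WT, replicate 4 was high for Bub1b (15.2 CPM) and replicate 3 was high for Pttg1 (23.96 CPM), the securin that holds separase inactive, with the other 3 libraries at 10.5 to 12.1 CPM. The cause of these distances was not tested.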

How the results depend on the processing

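Counts below are of the 49 genes and show only how far the calls depend on the setting. They are given without the share of all genes under each setting and are not read as an excess. For T3 in WT, 1 higher became 2 within replicates 3 to 5 and 4 without hyperthyroid WT replicates 1 and 2 together, and in a model of the 8 combinations of group and library set (the combined model) it was 0 in replicates 1 and 2 and 2 in replicates 3 and 4 (5 with TMM factors). The 2 lower became 4 with no fold limit, 1 with CPM above 1 required in all libraries, 14 within replicates 1 and 2, and 12 in the combined model for those replicates (12 with TMM). For T3 in Thrb-KO, 1 higher became 2 with no fold limit, with TMM, with DESeq2 and within replicates 1 and 2, and 0 with edgeR, with CPM above 1 in all libraries, with no filter and with a pseudocount of 1. It became 8 with only the groups compared, 6 with the replicate block, 6 with the library set as a block, 6 without hyperthyroid WT replicates 1 and 2, 13 within replicates 3 to 5, and 13 in the combined model for those (14 with TMM). In hypothyroid Thrb-KO against WT, 0 higher became 1 within replicates 3 to 5 and in the combined model for those (1 with TMM), and 0 lower became 1 with DESeq2, 2 with only the groups compared, 1 with the replicate block, 2 with the set block, 1 without hyperthyroid WT replicates 1 and 2, 1 within replicates 1 and 2, 8 within replicates 3 to 5, and 13 in the combined model for those (14 with TMM). In hyperthyroid Thrb-KO against WT, 1 higher became 4 with the replicate block, 3 with the set block, 15 within replicates 1 and 2, 3 within replicates 3 to 5, 3 without hyperthyroid WT replicates 1 and 2, and in the combined model 14 (15 with TMM) for the earlier and 3 (3 with TMM) for the later replicates. There 0 lower became 1 with TMM, edgeR, DESeq2, either block, within replicates 1 and 2 and in the combined model for those (1 with TMM), 3 without hyperthyroid WT replicates 1 and 2, and 2 with TMM there for the later replicates. For the difference between genotypes, 0 higher became 1 with a pseudocount of 1, 6 with the replicate block, 11 with the set block, 10 within replicates 1 and 2, 2 within replicates 3 to 5, and in the combined model 7 (7 with TMM) and 2 (2 with TMM) likewise, and 0 lower became 1 within replicates 1 and 2. The replicate block changed no other count of calls by over 1.5 times. Genes near a pituitary peak (11 of 49) became 33 within 100 kb, 5 for overlap with the gene and 6 for the better part of the peaks by FDR. For cortex peaks 12 became 5 within 5 kb, 30 within 100 kb, 3 and 7, and for open sites 2 became 9 within 100 kb. The causes of these changes were not tested.

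Leaving out 1 library at a time gave 0 to 1 higher and 2 to 2 lower for T3 in WT, with 0 higher without hypothyroid WT replicate 2 or hyperthyroid WT replicate 4. It gave 0 to 3 higher for T3 in Thrb-KO (3 without hyperthyroid Thrb-KO replicate 1), 0 to 0 higher and 0 to 1 lower between genotypes in the hypothyroid state, 1 to 6 higher and 0 to 1 lower in the hyperthyroid state, and 0 to 7 higher and 0 to 0 lower for the difference. The 6 and the 7 came without hyperthyroid WT replicate 4, and without replicate 3 both counts were 2. Mki67 in WT, at -0.12, turned to 0.10 with edgeR, 0.11 with DESeq2, 0.54 within replicates 3 to 5, 0.56 without hyperthyroid WT replicates 1 and 2, and 0.086 or 0.13 without 1 of these (range -0.42 to 0.13 over single libraries). The E2f1 call held in all 33 alternatives that gave a value (log2 difference -2.05 to -1.08), Ccne1 in 31 of 32, Bub1b in 31 of 33, Mcm2 in 32 of 33 and Cenpa in 16 of 32 (limma, edgeR or DESeq2 adjusted p 0.017 to 0.51 for Cenpa). Depth limited 12 of the tested genes, whose median was under 50 reads. Ccne1 (median 44 reads, lowest 31) and Cenpa (median 39 reads, lowest 13) were among them. So were Cdk1, Aurkb, Ube2c and Birc5, which were called in the combined model.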
